A study of Mus musculus with 4 samples.

Results

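RNA sequencing read counts were described for 35 genes of macrophages, dendritic cells and major histocompatibility complex (MHC) class II antigen presentation in the sublingual gland, which is a salivary gland of mucous type. The members were taken by name from the deposited table of 24411 gene symbols, and all 35 have a row there. They comprise 24 macrophage and dendritic cell genes and 11 class II genes. All 4 libraries come from female C57BL/6J mice of genotype Nkx2.3-/-, 2 from the age of 8 weeks (replicates 1 and 2) and 2 from the age of 32 weeks (replicates 3 and 4). Every library is labelled as the knockout, and no library labelled wild type was analysed here, so age is the 1 factor that can be compared. Whether each library is a different animal is not in the labels, so a p-value here reflects only how far these libraries spread, and that spread may be technical.

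Total depth was 12925869 and 14265485 counts for the pair of 8-week replicates (1, then 2), and 16484772 and 16111122 for the pair of 32-week replicates (3, then 4). Nkx2-3, the targeted homeobox gene, had 31, 28, 21 and 29 counts in these libraries, in that order. The extent of the deletion is not stated in those labels, so these counts do not check them. The libraries did not pair by age in their tissue content: 7 acinar genes (Muc19, Smgc, Aqp5, Dcpp1, Dcpp2, Dcpp3 and Bpifa2) took 33.1% and 34.8% of counts in 8-week replicate 1 and 32-week replicate 4, against 44.0% and 46.0% in 8-week replicate 2 and 32-week replicate 3. Levels are given below as CPM (reads scaled to a common library size) scaled with edgeR's TMM factors. A library with no count for a gene could hold up to 3 counts, or 0.174 to 0.221 CPM by library, and this limit covers counting error only.

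Macrophages live in nearly every tissue, depend on the receptor Csf1r, and clear debris and dying cells, while dendritic cells take up antigen and carry it to T cells. Both cell types, together with B cells, show peptides to helper T cells on MHC class II molecules. A class II molecule pairs an alpha with a beta chain, is guarded on its way by the invariant chain Cd74, exchanges peptides with the help of the H2-DM chaperone, and is switched on at the gene level by the transactivator Ciita. Ciita does not bind DNA itself but joins factors that sit on the W, X and Y boxes of class II promoters, and the Y box is bound by NF-Y. Several of the listed genes are known from other cells too: Fcer1g and Tyrobp are used by natural killer cells and Fcer1g by mast cells, Lyz2 by neutrophils, and the class II genes, Ctss and Laptm5 by B cells.

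Most class II promoters found in the reference carried the letters of a Y box, and they are shown here so that the element named above can be seen beside the levels of its genes. RefSeq promoter windows on GRCm38.p6, from 250 bases before to 50 after each start, were matched by symbol for 28 of the 35 members. C1qa, Csf1r, Cd14, Tyrobp, H2-Ab1, Cd74 and Ciita had no entry in the table used. The letters searched on both strands were GATTGG, a Y box, and GCAAC, the start of an X box, and they were chosen after the windows had been seen, so the counts below are a description and no test of how the lists differ. They do not overlap each other. The following stretches all end before the gene's start and are written on the gene's strand, 5′ to 3′, with capitals marking GCAAC and GATTGG.
H2-Aa, chr17:34287853-34287932, minus strand: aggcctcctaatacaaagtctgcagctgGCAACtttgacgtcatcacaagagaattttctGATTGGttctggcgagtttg
H2-Eb1, chr17:34305747-34305826, plus strand: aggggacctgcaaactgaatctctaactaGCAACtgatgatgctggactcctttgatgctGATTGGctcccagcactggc
H2-Eb2, chr17:34325514-34325593, plus strand: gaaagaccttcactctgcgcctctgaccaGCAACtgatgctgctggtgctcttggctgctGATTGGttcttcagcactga
H2-Oa, chr17:34092275-34092354, plus strand: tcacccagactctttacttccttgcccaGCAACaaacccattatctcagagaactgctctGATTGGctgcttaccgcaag
H2-Ob, chr17:34238787-34238866, plus strand: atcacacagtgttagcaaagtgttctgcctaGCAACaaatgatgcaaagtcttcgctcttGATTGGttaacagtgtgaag
H2-DMb1, chr17:34153069-34153148, plus strand: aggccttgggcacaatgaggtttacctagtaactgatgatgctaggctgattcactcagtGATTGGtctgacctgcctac
H2-DMb2, chr17:34145098-34145177, plus strand: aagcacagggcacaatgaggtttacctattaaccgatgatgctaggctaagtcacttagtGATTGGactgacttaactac

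On the gene's strand, GATTGG was found in 8 of the 9 class II windows, which belong to 8 genes, in 1 of 20 macrophage and dendritic cell windows (Cd163), and in 8.71% of all 32851 windows in the table. On either strand the shares were 88.9%, 15% (Cd163, Xcr1 and Cd68) and 16.1%. The stretches above place GATTGG 44 to 101 bases before the start. H2-DMa has a pair of windows, of which 1 held GATTGG, 199 bases before its start, and the other did not. The order GCAAC and then GATTGG, with 5 to 45 bases between them, was found in 5 of the 9 class II windows, in 0 of 20 macrophage and dendritic cell windows and in 0.335% of all windows. The gap in those 5 genes (H2-Aa, H2-Eb1, H2-Eb2, H2-Oa and H2-Ob) was 24 to 27 bases. The chaperone chains H2-DMb1 and H2-DMb2 have GATTGG without GCAAC at that distance. A match is a description of letters in a window, and the counts below show that genes with the same element differed widely in level: H2-Aa and H2-Eb1 were among the highest members, and H2-Eb2 and H2-Oa were at or near 0.

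The members took 15021 counts in 8-week replicate 1, 9904 in 8-week replicate 2, 12171 in 32-week replicate 3 and 17262 in 32-week replicate 4. As a share of all counts this was 0.116% (95% exact binomial interval 0.114 to 0.118) and 0.0694% (0.0681 to 0.0708) at 8 weeks, and 0.0738% (0.0725 to 0.0752) and 0.107% (0.106 to 0.109) at 32 weeks. The 2 libraries with the larger acinar share had the smaller member share. Outside the 7 acinar genes the member share was 0.174%, 0.124%, 0.137% and 0.164% in the same order, so 8-week replicate 2 remained the lowest library and 32-week replicate 3 the next. In a bulk sample, fewer cells of a type and less RNA per cell cannot be told apart.

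Of the 35 members, 28 had a mean over the libraries of at least 1 CPM: 21 of 24 macrophage and dendritic cell genes and 7 of 11 class II genes. Cd209a, Clec9a, Xcr1, H2-Eb2, H2-DMb2, H2-Oa and H2-Ob were below that level. Per kilobase of exon, the only scale on which genes are compared here, the highest mean levels were those of Cd74 with 102 CPM per kilobase, H2-Eb1 with 88.2, H2-Aa with 75.7 and H2-Ab1 with 62.3. The highest macrophage members followed, with Lyz2 at 57.7, C1qb at 41.1, Ctss at 34.8 and Tyrobp at 33.3 CPM per kilobase. The lowest members above 1 CPM were Ciita with 0.318 and Itgam with 0.427 CPM per kilobase.

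**Figure D1:**
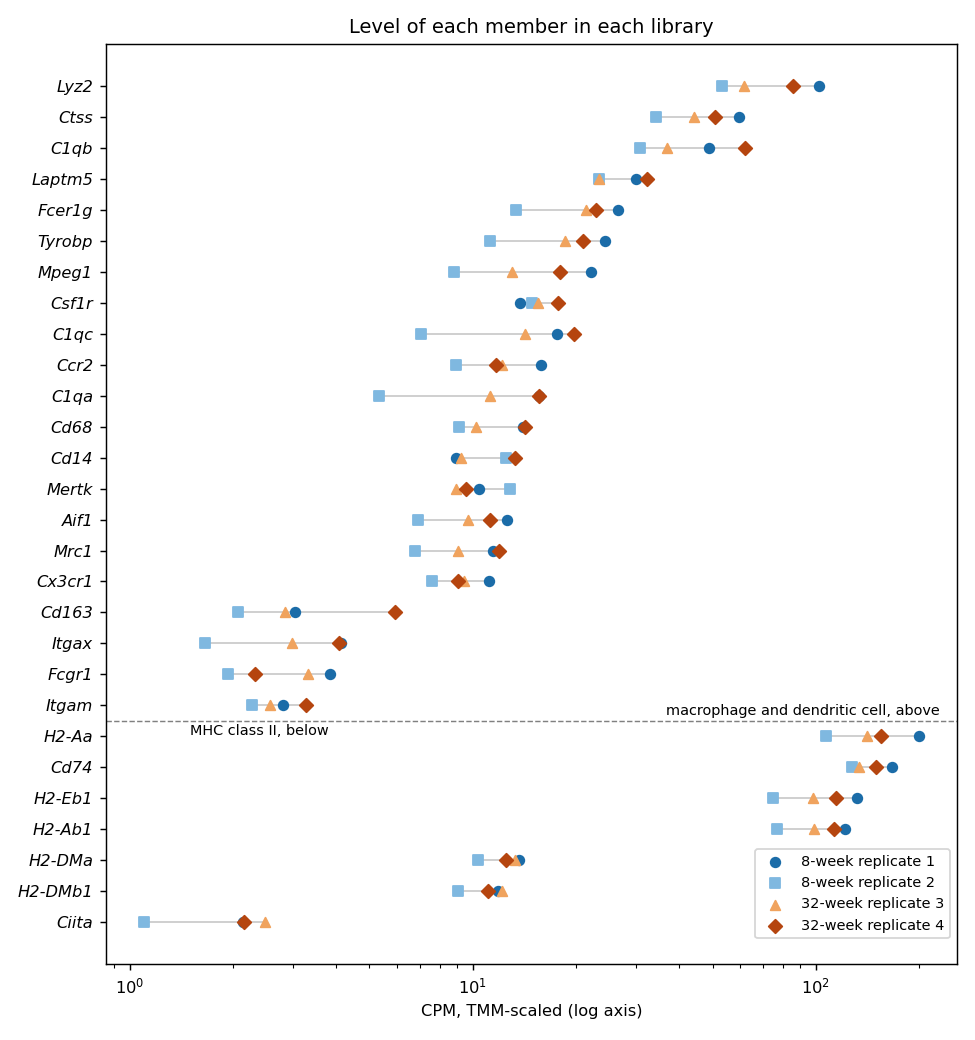
TMM-scaled CPM of the 28 members with a mean of at least 1 CPM (log axis), with 1 symbol per library and a grey line from the lowest to the highest library. The light blue square of 8-week replicate 2 lies at the left end for 25 of the 28 genes, with Csf1r, Cd14 and Mertk as the exceptions.

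The complement C1q genes include C1qa, which differed most between libraries of the members above 1 CPM. C1q is a recognition protein of complement, made in tissues mainly by macrophages, and its 3 chains are encoded side by side on chromosome 4 (NCBIM37, C1qa at 136451832 to 136454718, minus strand). C1qa had 15.6 and 5.32 CPM at 8 weeks (replicates 1 and 2), against 11.2 and 15.6 at 32 weeks (replicates 3 and 4), and pairs of values by age follow that order throughout. C1qb had 48.9, 30.8, 36.9 and 62.1 CPM in the same order. C1qc had 17.6, 7.04, 14.2 and 19.8 CPM. All 3 were lowest in 8-week replicate 2, and for each the ages overlapped. The 95% Poisson interval of C1qa in 8-week replicate 2, 4.20 to 6.65 CPM from 77 counts, lay below those of the other 3 libraries, of which the lowest bound was 9.54 CPM.

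The receptors that receive growth factor, chemokine and bacterial signals varied less, with ranges of 1.29- to 1.77-fold from the lowest to the highest library. Csf1r, the receptor for Csf1 and Il34, had 13.7 and 14.8 CPM at 8 weeks, against 15.5 and 17.7 at 32 weeks. This was the narrowest range of the 28 members, against 2.94-fold for C1qa. Csf1r shares 871 exon bases with Hmgxb3 on the opposite strand, and nothing used here says whether the counting used strand. Reads from those 871 of the 5229 exon bases of Csf1r therefore cannot be assigned to 1 of the genes here. Hmgxb3 itself was listed with 6.86, 8.77, 8.85 and 9.19 CPM. Cx3cr1, the fractalkine receptor, had 11.1 and 7.60 CPM at 8 weeks, then 9.40 and 9.07 at 32 weeks. Ccr2, the receptor that draws monocytes into tissue, had 15.8 and 8.91 CPM at 8 weeks, against 12.2 and 11.7 at 32 weeks. Cd14, a coreceptor for bacterial lipopolysaccharide, had 8.93 and 12.5 CPM at 8 weeks, then 9.26 and 13.3 at 32 weeks. Cd14 and Csf1r were lowest in 8-week replicate 1 rather than in 8-week replicate 2, an order that depends on the scaling: with total counts alone, both were lowest in 32-week replicate 3.

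Both leukocyte integrin chains were low. Itgam, the CD11b chain, had 2.80 and 2.28 CPM at 8 weeks, against 2.56 and 3.26 at 32 weeks. Itgax, the CD11c chain found on dendritic cells and some macrophages, had 4.13 and 1.66 CPM at 8 weeks, then 2.97 and 4.07 at 32 weeks. The 8-week libraries bracketed the 32-week libraries for Itgax, but with total counts alone 32-week replicate 4 was highest. For Itgam only 32-week replicate 4 was above both 8-week libraries.

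The Fc receptor genes and their signalling adaptors were all highest in 8-week replicate 1 and lowest in 8-week replicate 2, so that the 8-week values enclosed the 32-week ones. Fcer1g, the shared gamma chain of Fc receptors, had 26.5 and 13.4 CPM at 8 weeks, against 21.4 and 22.9 at 32 weeks. Tyrobp, the adaptor DAP12, had 24.4 and 11.3 CPM at 8 weeks, then 18.5 and 20.9 at 32 weeks. Fcgr1, the high-affinity receptor for IgG, had 3.84 and 1.93 CPM at 8 weeks, against 3.32 and 2.33 at 32 weeks. Aif1, the actin-binding protein Iba1 used to stain macrophages, had 12.5 and 6.90 CPM at 8 weeks, then 9.68 and 11.2 at 32 weeks.

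Among the endocytic receptors and those for dying cells, Mertk ran against the other members. Mertk, a kinase receptor through which dying cells are taken up, had 10.4 and 12.8 CPM at 8 weeks, against 8.92 and 9.54 at 32 weeks, and was the only one of the 28 members that was highest in 8-week replicate 2. Mrc1, the mannose receptor, had 11.4 and 6.77 CPM at 8 weeks, then 9.06 and 11.9 at 32 weeks. Cd163, the scavenger receptor for haemoglobin bound to haptoglobin, had 3.03 and 2.07 CPM at 8 weeks, against 2.83 and 5.93 at 32 weeks. The high Cd163 value came from 32-week replicate 4 alone, and 32-week replicate 3 lay between the 8-week libraries. Cd209a, a lectin of dendritic cells, had 8, 7, 8 and 4 counts.

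The lysosomal and granule genes include Lyz2 and Ctss, the first and the third of the macrophage members by mean CPM per kilobase. Lyz2, which encodes lysozyme of myeloid cells, had 102 and 53.4 CPM at 8 weeks, then 61.8 and 86.0 at 32 weeks. Ctss, the protease cathepsin S that trims the invariant chain, had 59.8 and 34.2 CPM at 8 weeks, against 44.2 and 51.0 at 32 weeks. Laptm5, a lysosomal membrane protein of blood cells, had 29.8 and 23.3 CPM at 8 weeks, then 23.3 and 32.1 at 32 weeks. All 3 had 8-week replicate 2 and 32-week replicate 3 as the lower pair, very nearly level for Laptm5. Mpeg1, a pore-forming protein, had 22.1 and 8.84 CPM at 8 weeks, against 13.0 and 17.9 at 32 weeks. Cd68, a lysosomal glycoprotein used as a macrophage stain, had 14.0 and 9.11 CPM at 8 weeks, then 10.2 and 14.2 at 32 weeks. Lyz2 has a close paralog, Lyz1, that was listed at 2.83 to 5.18 CPM, and the division of reads between the pair is uncertain.

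The receptors that mark cross-presenting dendritic cells were near the limit of counting. Clec9a, a receptor for the exposed actin of dead cells, had 12, 11, 10 and 12 counts. It shares 184 exon bases with Clec1b on the same strand, and Clec1b had 0 or 1 counts in each library. Xcr1, a chemokine receptor of the same cells, had 4, 3, 13 and 5 counts. The 95% Poisson interval of the 13 counts of Xcr1 in 32-week replicate 3, 0.478 to 1.54 CPM, overlapped those of the other libraries, which ran from 0.0427 to 0.756 CPM in all. Xcr1 did not pass the low-count filter, so its difference was not tested.

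The class II alpha and beta chain genes lie in the MHC on chromosome 17 (NCBIM37, from H2-Ab1 at 34400154 to H2-Eb2 ending at 34477174). H2-Aa, the A alpha chain, had 199 and 107 CPM at 8 weeks, against 140 and 155 at 32 weeks. H2-Ab1, its beta chain partner, had 121 and 77.0 CPM at 8 weeks, then 98.6 and 113 at 32 weeks. H2-Eb1, the E beta chain, had 132 and 75.2 CPM at 8 weeks, against 98.0 and 114 at 32 weeks. All 3 shared 1 order, with 8-week replicate 1 highest, then 32-week replicate 4, then 32-week replicate 3, and 8-week replicate 2 lowest. H2-Aa and H2-Ab1 overlap by 17 exon bases on opposite strands. H2-Eb2 had 0 counts in both 8-week libraries and 1 count in each 32-week library, all below the limit for a count of 0. The E alpha gene, H2-Ea-ps in the table, had 0 counts in all 4 libraries. C57BL/6 mice are known to carry a broken E alpha gene and to make no E molecule, so in these glands H2-Eb1 RNA was present without RNA of its partner chain.

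Cd74, the invariant chain, stood at 167 and 127 CPM at 8 weeks, then 133 and 150 at 32 weeks, with a 1.31-fold range, the narrowest of the class II genes. Ciita, the transactivator, had 29, 16, 36 and 37 counts, or 2.14 and 1.10 CPM at 8 weeks, against 2.49 and 2.15 at 32 weeks. Both 32-week values of Ciita were above both 8-week values, but 32-week replicate 4 and 8-week replicate 1 were nearly level, and with total counts alone the ages overlapped. Cd74 shares 12 exon bases with another annotated gene, and its order was that of the alpha and beta chains.

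The peptide exchange chaperones were lower than the chains they serve, with mean levels of 7.58 CPM per kilobase for H2-DMa and 7.46 for H2-DMb1. H2-DMa, the alpha chain of the H2-DM chaperone, had 13.7 and 10.4 CPM at 8 weeks, then 13.3 and 12.5 at 32 weeks. H2-DMb1, a beta chain of H2-DM, had 11.8 and 9.05 CPM at 8 weeks, against 12.2 and 11.1 at 32 weeks. In both genes 8-week replicate 2 was lowest and the other 3 libraries lay close together. H2-DMb2, a close paralog of H2-DMb1 with which reads may be shared, had 6, 5, 3 and 4 counts. H2-Oa and H2-Ob encode H2-O, which restrains H2-DM and is known mainly from B cells. H2-Oa had 2, 1, 0 and 2 counts. H2-Ob had 9 and 4 counts at 8 weeks and 5 and 28 counts at 32 weeks. It was highest in 32-week replicate 4, at 1.63 CPM (95% Poisson interval 1.08 to 2.35). Next came 8-week replicate 1 at 0.664 CPM (0.304 to 1.26), with an interval that overlapped. The intervals of 8-week replicate 2 (0.0753 to 0.707) and 32-week replicate 3 (0.112 to 0.807) lay below that of 32-week replicate 4.

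Most of the 28 members above 1 CPM shared their lowest library, and for most the order of the libraries did not follow age. The lowest value was in 8-week replicate 2 for 18 of 21 macrophage and dendritic cell genes and for 7 of 7 class II genes, while 35.5% of the 12022 tested genes of at least 1 CPM were lowest there. With total counts in place of TMM the numbers were 15 of 21 and 6 of 7, against 28.4% of all genes, and Cd68, Itgam, Laptm5 and Cd74 were then lowest in 32-week replicate 3. The highest value was in 8-week replicate 1 for 11 macrophage and dendritic cell genes and 5 class II genes, while 25% of all genes were highest there. It was in 32-week replicate 4 for 9 macrophage and dendritic cell genes and for none of the 7 class II genes, while 20.2% of all genes were highest there. With total counts, 9 macrophage and dendritic cell genes were highest in 8-week replicate 1 and 11 in 32-week replicate 4, against 6 and 1 class II genes. With the 10 most abundant genes left out, the macrophage and dendritic cell numbers were 10 and 10. Shares over all genes were not computed for these alternatives. Ciita and H2-DMb1 were highest in 32-week replicate 3, but not with total counts alone, when Ciita was highest in 32-week replicate 4 and H2-DMb1 in 8-week replicate 1.

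The complete order of 8-week replicate 1, 32-week replicate 4, 32-week replicate 3 and 8-week replicate 2, from high to low, was that of 12 members and of 8.83% of all genes. Of these 12, 8 were macrophage and dendritic cell genes and 4 were class II genes (H2-Aa, H2-Ab1, H2-Eb1 and Cd74). The same order with the first 2 libraries exchanged was that of 7 members, all of them macrophage and dendritic cell genes, and of 6.14% of all genes. These orders depend on the scaling: with total counts alone, C1qa and Itgax, both of the first order, were highest in 32-week replicate 4. The ratio of the highest to the lowest library had a median of 1.82 (1.29 to 2.94) over the 21 macrophage and dendritic cell genes, 1.58 (1.31 to 2.25) over the 7 class II genes and 1.44 over all genes of at least 1 CPM.

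Macrophage genes were then set against class II genes within each library. Each gene's log2 CPM was taken relative to its own mean over the 4 libraries, so that 0 is the gene's mean. The median over the 21 macrophage and dendritic cell genes was 0.35 and -0.48 at 8 weeks, with -0.07 and 0.26 at 32 weeks. The median over the 7 class II genes was 0.22 and -0.39 at 8 weeks and -0.03 and 0.08 at 32 weeks. Both lists were low in 8-week replicate 2, and the class II median departed less from the gene means in all 4 libraries. The difference, class II minus macrophage, was -0.13 and 0.09 at 8 weeks, with 0.03 and -0.18 at 32 weeks. Replicates of 1 age had opposite signs at both ages, and the values moved with the libraries and the summary used. The value of 8-week replicate 1 was -0.03 without 8-week replicate 2, that of 8-week replicate 2 became 0.04 with 8-week replicate 1 left out and 0.05 with 32-week replicate 4 left out, and that of 32-week replicate 4 became -0.08 with 8-week replicate 1 left out. With means in place of medians, 8-week replicate 1 stood at -0.02 and 32-week replicate 3 at 0.12. The summed class II counts were 1.41 and 1.47 times the summed macrophage counts at 8 weeks and 1.46 and 1.26 times at 32 weeks, a ratio in which library scaling cancels. It was lowest in 32-week replicate 4, and the ages overlapped.

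**Figure D2:**
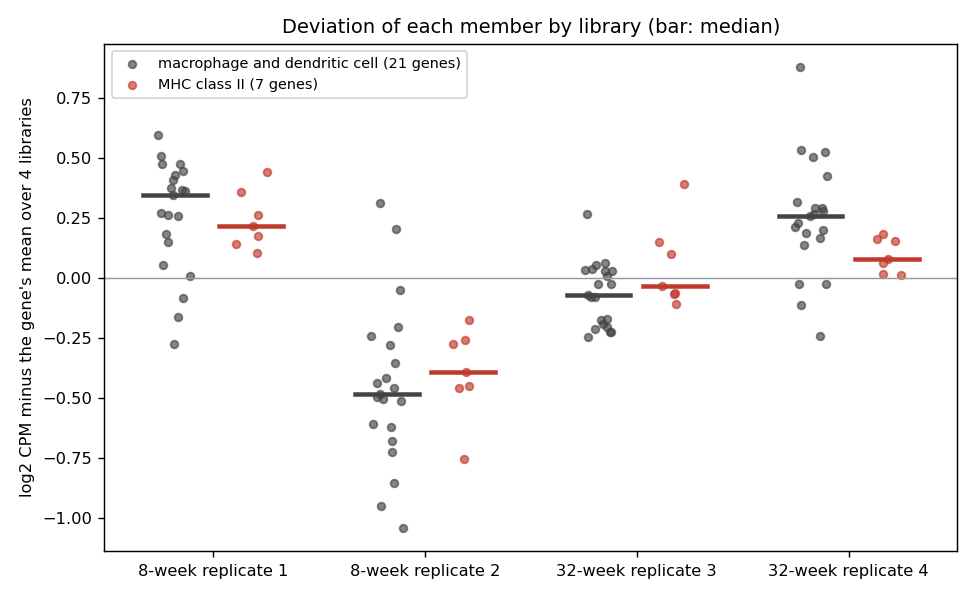
Each point is 1 of the 21 macrophage and dendritic cell genes (grey) or 7 class II genes (red), as log2 CPM minus the gene's mean over the 4 libraries, and bars are medians. The medians in 8-week replicate 2 were -0.48 and -0.39, below those of the other 3 libraries. The class II points, fewer in number, covered a narrower range than the macrophage points in every library, but only slightly so in 32-week replicate 3. There they ran from -0.107 to 0.392, against -0.247 to 0.267.

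Ratios of 2 genes' counts within a library are free of scaling, and 20 such pairs, chosen with the levels known, were computed with 95% exact binomial intervals that cover counting error only. Some pairs kept their ratio within counting error or close to it. Tyrobp over Fcer1g was 0.919 and 0.840 at 8 weeks and 0.867 and 0.914 at 32 weeks, with overlapping intervals in all 4 libraries. The beta chain H2-Eb1 over H2-Aa was 0.661 and 0.704 at 8 weeks and 0.697 and 0.736 at 32 weeks. The partner beta chain did not keep its ratio: H2-Ab1 over H2-Aa was 0.608 (0.572 to 0.647) and 0.721 (0.667 to 0.779) at 8 weeks. At 32 weeks H2-Ab1 over H2-Aa was 0.702 (0.655 to 0.751) and 0.728 (0.686 to 0.772), so the interval of 8-week replicate 1 lay below all others. Other pairs differed between libraries, some with 8-week replicate 2 apart and some with 8-week replicate 1. C1qa over Csf1r was 1.14 (0.932 to 1.40) and 0.358 (0.272 to 0.467) at 8 weeks and 0.723 (0.587 to 0.889) and 0.882 (0.745 to 1.04) at 32 weeks. Tyrobp over Csf1r was 1.77 and 0.758 at 8 weeks and 1.20 and 1.18 at 32 weeks. Mertk over C1qa was 0.665 and 2.42 at 8 weeks and 0.796 and 0.612 at 32 weeks. In each of these 3 pairs the interval of 8-week replicate 2 lay apart from those of the other libraries, which describes counting error only, since C1qa, Csf1r and Mertk were paired for their differences there. With 8-week replicate 1 apart, H2-Aa over Csf1r was 14.5 (12.5 to 16.9) and 7.19 (6.23 to 8.33) at 8 weeks, against 9.07 (7.90 to 10.5) and 8.77 (7.79 to 9.91) at 32 weeks. Ctss over Csf1r was 4.36 and 2.31 at 8 weeks, against 2.85 and 2.88 at 32 weeks. Lyz2 over Csf1r was 7.42 and 3.60 at 8 weeks, against 3.99 and 4.87 at 32 weeks. In these 3 pairs the intervals of 8-week replicate 2 and 32-week replicate 3 overlapped. Within C1q, C1qa over C1qb was 0.320 and 0.173 (0.134 to 0.220) at 8 weeks and 0.303 and 0.251 (0.219 to 0.287) at 32 weeks, the lowest value again in 8-week replicate 2 but with an interval that just touched that of 32-week replicate 4. Cd74 over H2-Aa was 0.837 (0.791 to 0.885) and 1.19 (1.11 to 1.28) at 8 weeks and 0.949 and 0.968 at 32 weeks, highest in the library where class II RNA was lowest.

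**Figure D3:**
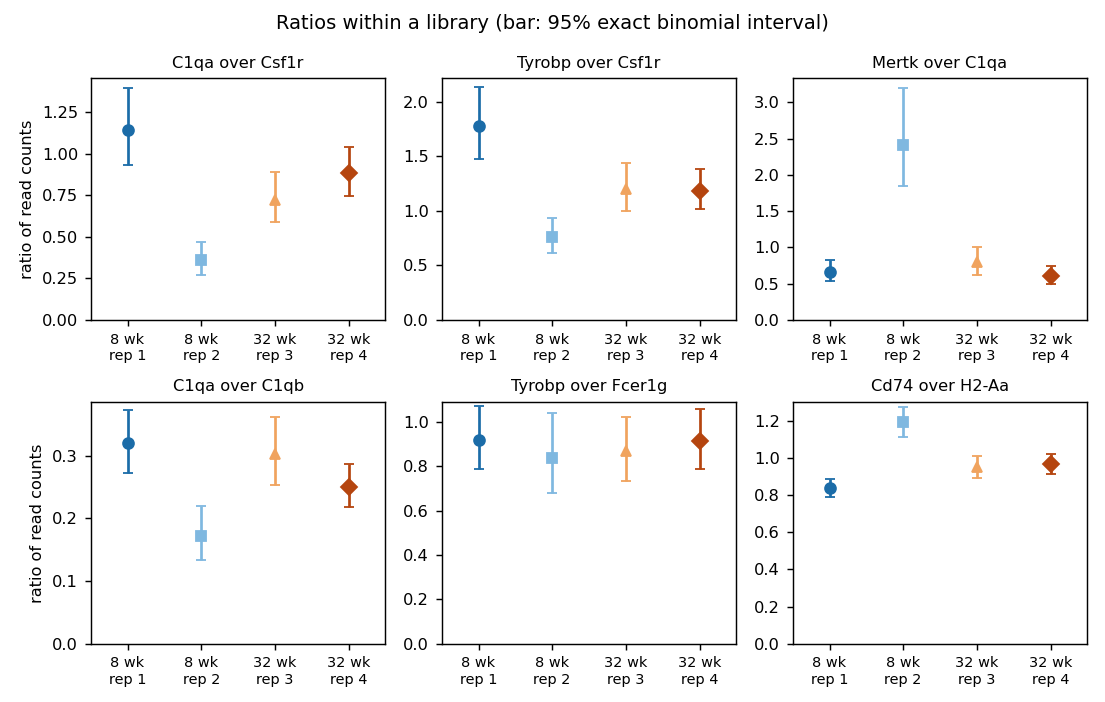
Ratios of read counts within each library for 6 pairs of members, with 95% exact binomial intervals. C1qa over Csf1r, Tyrobp over Csf1r and C1qa over C1qb are lowest in 8-week replicate 2, Mertk over C1qa and Cd74 over H2-Aa are highest there, and the 4 intervals of Tyrobp over Fcer1g overlap.

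The design's comparison is that of 32 weeks with 8 weeks. With edgeR's quasi-likelihood test over 12810 genes and Benjamini-Hochberg adjustment, 0 members passed an adjusted p of 0.05, and neither did any other gene (0% called, 174 genes at an unadjusted p under 0.05). By limma-voom 0 genes passed (177 unadjusted) and by DESeq2 3 genes passed (89 unadjusted), none of them a member. Of the 35 members 30 passed the low-count filter, 22 of 24 and 8 of 11, and all 30 had an edgeR unadjusted p above 0.05. The log2 fold change was positive for 16 of 22 macrophage and dendritic cell genes, with a median of 0.09, and for 6 of 8 class II genes, with a median of 0.10, beside a median of -0.01 over all genes. For a single value, 2 libraries against 2 cannot give an exact permutation p below 0.333.

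Among the macrophage and dendritic cell genes the fitted log2 fold changes, 32 over 8 weeks, were small beside their errors. C1qa gave 0.36 (SE 0.45, edgeR adjusted p = 0.999) and Itgax 0.29 (SE 0.46, adjusted p = 0.999). Csf1r gave 0.22 (SE 0.20, adjusted p = 0.999), with a 95% interval from -0.24 to 0.68. Cd68 gave 0.08 (SE 0.28), Ctss 0.02 (SE 0.28), Lyz2 -0.07 (SE 0.33) and Clec9a -0.24 (SE 0.49), each with an edgeR adjusted p of 0.999. The sign of Ctss turned with total counts, to -0.07. The largest value was that of Cd163, 0.79 (95% interval -0.22 to 1.80), and the lowest that of Mertk, -0.33 (-0.85 to 0.18), both named after their values were seen.

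Among the class II genes the alpha and beta chains and Cd74 had log2 fold changes between -0.05 and 0.09, while Ciita and H2-Ob had larger values. H2-Aa gave -0.05 (SE 0.31), H2-Ab1 0.09 (SE 0.26), H2-Eb1 0.04 (SE 0.29) and Cd74 -0.05 (SE 0.23), each with an edgeR adjusted p of 0.999. The 95% interval of Cd74 ran from -0.59 to 0.48 and that of H2-Aa from -0.77 to 0.67. H2-DMa gave 0.10 (SE 0.22) and Ciita 0.52 (SE 0.43), again with an edgeR adjusted p of 0.999. The sign of H2-Eb1 turned with total counts, to -0.05, and that of H2-Aa with limma-voom, to 0.01. H2-Ob gave 1.10 (95% interval -0.80 to 3.01), which rests on the 28 counts of 32-week replicate 4.

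**Figure D4:**
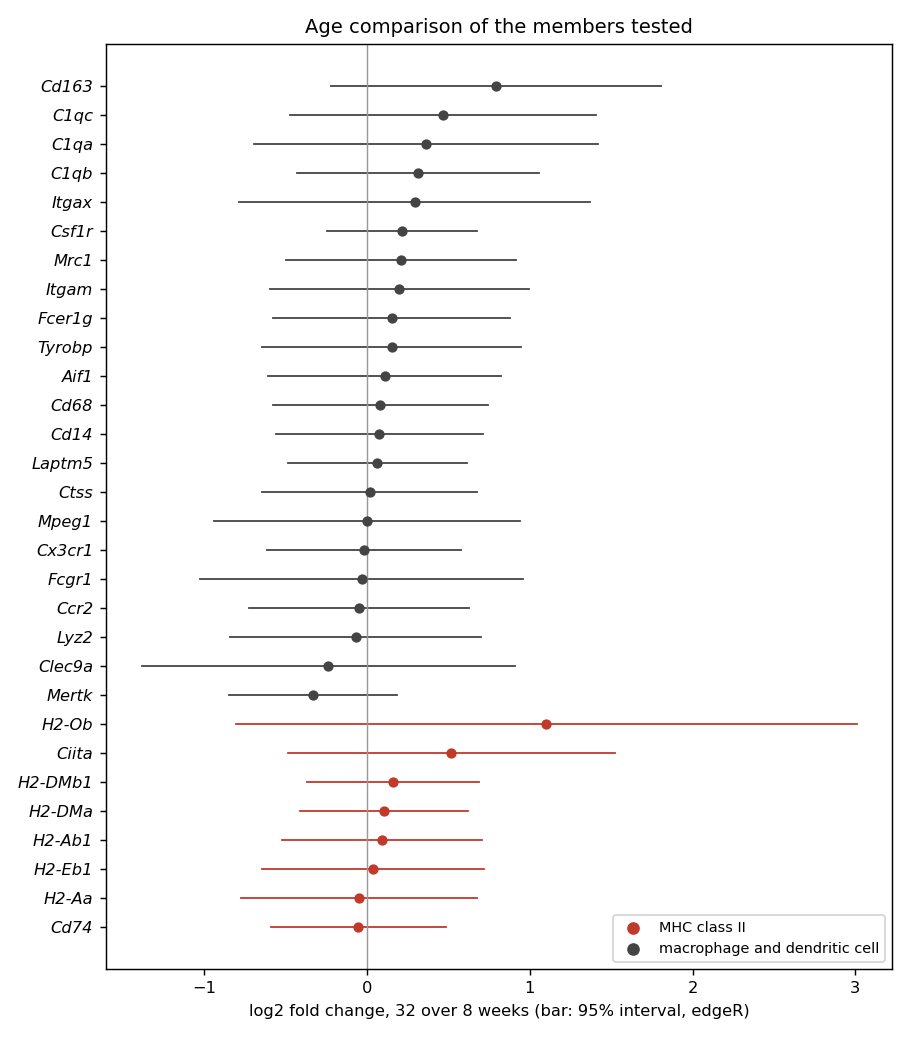
Log2 fold change of 32 over 8 weeks for the 30 members that passed the low-count filter, with 95% intervals from the edgeR fit (class II in red, macrophage and dendritic cell genes in grey). Every interval includes 0, and H2-Ob has the widest.

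Few members had ages that did not overlap. Both 32-week libraries were above both 8-week libraries for 1 of 22 macrophage and dendritic cell genes (Csf1r) and 1 of 8 class II genes (Ciita), beside 14.4% of all genes. Both were below for Mertk and Clec9a and for 0 of 8 class II genes, beside 14.2% of all genes. Clec9a had only 12, 11, 10 and 12 counts, and its 95% Poisson intervals overlapped in all 4 libraries. With total counts alone the ages of Csf1r and Ciita overlapped, while those of Mertk did not.

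The age result of the C1q genes changed when 1 library was left out. Without 8-week replicate 1, edgeR called 285 of 13267 genes (2.15%), and of the 31 members tested it called C1qa (log2 fold change 1.34) and C1qc (1.27), both higher at 32 weeks with an edgeR adjusted p of 0.0447. In that fit the lone 8-week library is 8-week replicate 2, which is assumed to vary like the 32-week libraries. Without 8-week replicate 2, C1qa gave -0.21 and C1qc -0.04, and 0 members were called. The median over the macrophage and dendritic cell genes was 0.54 in the fit that lacks 8-week replicate 1 and -0.21 in the fit that lacks 8-week replicate 2. Over the class II genes it was 0.47 and -0.13.

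Other genes of the same pathways were read from fixed lists, and no gene of any list passed the edgeR test. In the list of Csf1 signalling and myeloid transcription factors, 10 of 13 genes were tested, 7 with a positive and 3 with a negative log2 fold change. Il34, the other ligand of Csf1r and the gene with the highest mean CPM of the list, had 22.1 and 35.9 CPM at 8 weeks, then 27.0 and 30.7 at 32 weeks, and was highest where the C1q genes were lowest. Csf1, the first ligand, had 10.3 and 7.94 CPM at 8 weeks, against 9.89 and 10.8 at 32 weeks. Spi1, the master transcription factor of myeloid cells, had 4, 3, 7 and 5 counts, or 0.207 to 0.484 CPM. Of the Fc receptor and ITAM partners, 11 of 11 were tested, 6 positive and 5 negative, and Sirpa, an inhibitory receptor of myeloid cells with the highest mean CPM of the list, had 142 and 98.0 CPM at 8 weeks, then 123 and 127 at 32 weeks.

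Of the class II regulators and antigen processing genes 19 of 22 were tested, 8 positive and 11 negative, with a median of -0.04. Their median deviation lay between -0.04 and 0.03 in the 4 libraries, over genes that went both ways: in 8-week replicate 2 Rfxap stood at -0.57 and Nfyc at 0.30. Rfx5, part of the complex on the X box, had 6.57 and 4.42 CPM at 8 weeks, against 4.08 and 6.57 at 32 weeks. Ifi30, a lysosomal reductase for antigens, had 24.4 and 20.4 CPM at 8 weeks, then 30.8 and 26.2 at 32 weeks, with ages that did not overlap. Ctsb, a lysosomal protease of most cells and the gene of the list with the highest mean CPM, had 262 and 332 CPM at 8 weeks, against 283 and 285 at 32 weeks.

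Of the genes for uptake of dying cells, 8 of 9 were tested, 6 positive and 2 negative, and both 32-week libraries were above both 8-week libraries for 5 of the 8 (Tyro3, Gas6, Cd36, Stab1 and Lgals3), beside 14.4% of all genes, and below for 1 (Pros1), beside 14.2%. The like counts, above and below, were 5 and 3 of 19 class II regulators and antigen processing genes, 2 and 1 of 10 Csf1 signalling and myeloid transcription factor genes, 0 and 2 of 11 Fc receptor and ITAM partners, 0 and 0 of 4 chemokine ligands and 2 and 0 of 11 further macrophage and dendritic cell markers. Of the uptake genes none passed the edgeR test, and Tyro3 alone had an unadjusted p under 0.05. Mfge8, a bridge to dying cells and the gene of the list with the highest mean CPM, had 82.5 and 132 CPM at 8 weeks, then 106 and 104 at 32 weeks. For the chemokine ligands of the member receptors, 4 of 6 were tested, 3 positive and 1 negative. Cx3cl1, the ligand of Cx3cr1, had 10.3 and 9.11 CPM at 8 weeks, against 10.2 and 11.9 at 32 weeks, and Ccl2, the ligand of Ccr2, had 0.553 to 0.760 CPM. Of 15 further macrophage and dendritic cell markers 11 were tested, 9 positive and 2 negative. Ms4a7, a membrane protein of macrophages with the highest mean CPM among them, had 21.6 and 8.98 CPM at 8 weeks, then 11.0 and 15.9 at 32 weeks. Adgre1, the F4/80 antigen of mouse macrophages, had 14.2 and 7.32 CPM at 8 weeks, against 7.67 and 11.4 at 32 weeks, an order shared with the class II chains.

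Markers of lymphocytes and plasma cells were also lowest in 8-week replicate 2, and their libraries lay further apart than those of the members. The 5 plasma cell markers summed to 1009 and 124 CPM at 8 weeks, then 591 and 888 at 32 weeks. Most of this sum was Jchain, with 920 and 73.7 CPM at 8 weeks, then 512 and 799 at 32 weeks. All 5 were lowest in 8-week replicate 2, but Derl3 varied less, from 46.3 to 65.5 CPM. The 10 T cell and natural killer cell markers summed to 15.7 and 6.15 CPM at 8 weeks, against 7.40 and 13.3 at 32 weeks. The 8 B cell markers, from a cell type that also uses class II genes, summed to 9.45 and 2.56 CPM at 8 weeks, then 5.18 and 8.20 at 32 weeks. Of the B cell genes, Ms4a1 had 4 counts in 8-week replicate 1 and 0 elsewhere, and Pax5 had 1 count in 8-week replicate 1 and 0 elsewhere. The T cell receptor gene Cd3e had 0.590 and 0.138 CPM at 8 weeks, then 0 and 0.640 at 32 weeks. The part of these cells in the levels of the members was not tested. As median deviations over markers of at least 1 CPM, 8-week replicate 2 stood at -1.88 for 5 plasma cell markers, -1.26 for 2 B cell markers and -0.70 for 5 T and natural killer cell markers, beside -0.48 and -0.39 for the macrophage and class II members.

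The remaining marker lists were mixed, and some were too low to read. The general leukocyte list of 9 genes had median deviations of 0.10, -0.27, -0.12 and 0.17, with the lower pair again 8-week replicate 2 and 32-week replicate 3. Its summed level had another order, 313 and 377 CPM at 8 weeks, then 333 and 284 at 32 weeks, most of it Lcp1, with 207 and 312 CPM at 8 weeks, then 251 and 185 at 32 weeks. The neutrophil genes S100a8 and S100a9 had 0 to 3 counts in each library, and Csf3r of the same list had 9, 10, 12 and 21. The mast cell list summed to 12.0 to 24.5 CPM, most of it Kit, with the highest sum in 8-week replicate 2. Its genes Cpa3, with 5, 1, 7 and 11 counts, and Cma1, with 15, 3, 4 and 18, were lowest there. The mast cell receptor chain Ms4a2 had 0 counts in all 4 libraries. Of the lymph node stroma and venule list, Ccl21a, Glycam1, Madcam1 and Chst4 had 0 counts in all 4 libraries. The whole of that list summed to 1.99 and 0.276 CPM at 8 weeks, then 0.830 and 1.40 at 32 weeks. Median deviations in 8-week replicate 2 were 0.04 for 7 endothelial, -0.04 for 6 fibroblast, -0.11 for 5 epithelial and 0.20 for 7 acinar genes, and the 5 adipocyte genes, mostly Fabp4, summed to 21.8 to 40.1 CPM with the lowest value there.

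**Figure D5:**
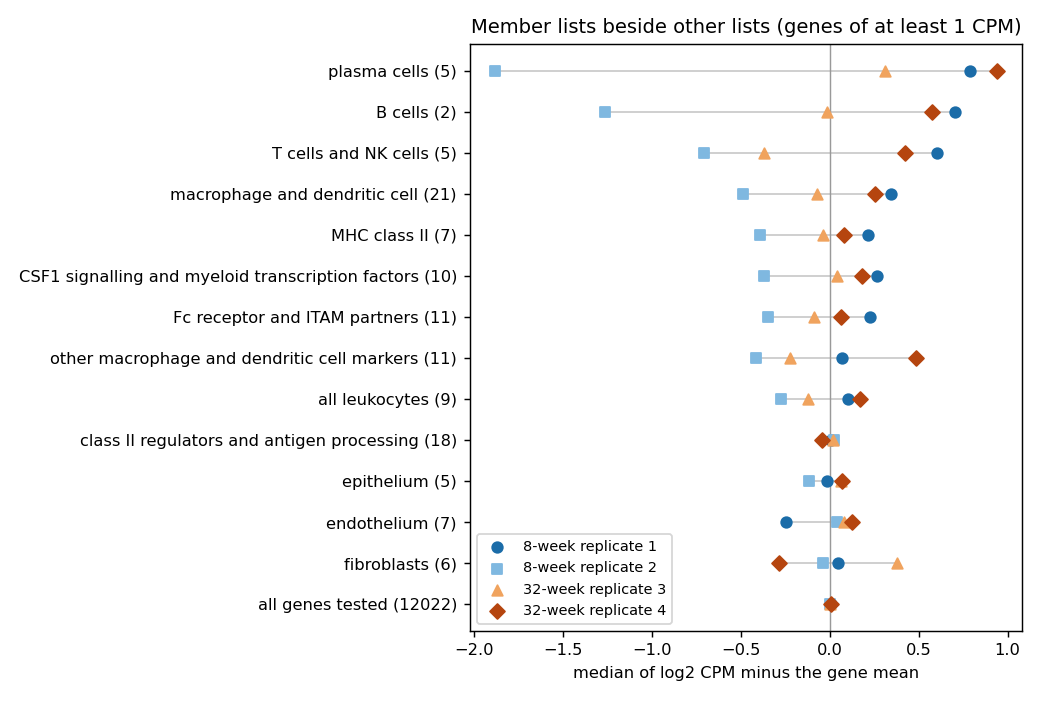
Median deviation, by library, of the macrophage and dendritic cell and class II members beside other gene lists, as log2 CPM minus the gene's mean, with the number of genes of at least 1 CPM in parentheses. In 8-week replicate 2 the 2 member lists lay at -0.48 and -0.39, between the plasma cell list at -1.88 and the lists of epithelium, endothelium and fibroblasts near 0.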

How the data were processed

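The authors aligned reads with STAR to mm9, per the submitters' processing notes; no source used here gives the STAR version, the counting tool, the annotation or the strand setting. Libraries were made from 1 ug of Trizol-extracted total RNA with a TruSeq kit, per the labels' protocols. The deposited values are raw counts of reads per symbol, not normalized. From these, CPM with TMM factors and edgeR 4.0.16 quasi-likelihood tests were computed in R 4.3.3 over the whole table (default low-count filter by age, Benjamini-Hochberg adjustment, threshold 0.05), with age as the only term. Deviations use log2 CPM with a prior count of 0.5 and members with a mean of at least 1 CPM. Alternatives were RLE factors, total counts, the 10 most abundant genes left out, no filter, DESeq2 1.42.0, limma-voom (limma 3.58.1), a minimum of 1 CPM in 3 or more libraries, and each library left out; the orders of libraries under other scalings were added after seeing the data. The test was checked on simulated data. Positions, exon lengths and overlaps come from GENCODE vM1 on NCBIM37, the assembly that mm9 names. Promoters come from RefSeq on GRCm38.p6.

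The members, gene lists and rule for named genes were chosen with earlier results of these data known. The rule names all 35 members, gives full statistics for C1qa, Csf1r, Lyz2, Cd68, Ctss, Itgax, Clec9a, H2-Aa, H2-Ab1, H2-Eb1, Cd74, Ciita and H2-DMa and any member past the threshold, and from each pathway list names any gene past the threshold and the most abundant gene, plus Spi1, Csf1, Il34, Rfx5, Ifi30, Adgre1, Cx3cl1, Ccl2 and Lyz1. Markers and other pathway genes were named after their values were seen.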

Additional observations from a re-analysis of the deposited data

How the results depend on the processing

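No paired analysis was possible because the labels give the ages different replicate numbers. The number of genes called for age was 0 in the edgeR fit, 10 with total counts, 7 with no low-count filter and 3 with DESeq2, and 6 to 285 with a library left out, the largest without 8-week replicate 1. The number of members called was 0 in all fits with 4 libraries and 0 to 2 with a library left out. The median log2 fold change of the class II genes ranged from -0.13 to 0.47 with a library left out, and that of the macrophage and dendritic cell genes from -0.21 to 0.54. Signs turned for Ctss (-0.066) and H2-Eb1 (-0.046) with total counts and for H2-Aa (0.014) with limma-voom. Over the fits that each lack 1 library, log2 fold changes lay at -0.21 to 1.34 for C1qa, -0.46 to 0.47 for Lyz2, -0.19 to 0.43 for Cd68, -0.32 to 0.48 for Ctss, -0.22 to 1.09 for Itgax, -0.43 to 0.47 for H2-Aa, -0.19 to 0.46 for H2-Ab1, -0.31 to 0.50 for H2-Eb1, -0.23 to 0.16 for Cd74 and -0.078 to 0.32 for H2-DMa; these 10 genes changed sign with 1 library or another, and Csf1r, Clec9a and Ciita did not. The cause was not tested. The difference of class II and macrophage median deviations is about as small as its spread between replicates, so its alternatives say nothing of its stability; its sign turned for 32-week replicate 3, to -0.02 with no filter on mean CPM and to -0.01 without 32-week replicate 4. Depth limits the 7 members below 1 CPM, with 0 to 28 counts in a library.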
